A study of Bos taurus with 6 samples.

Results

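The 10 genes RSAD2, OAS1, IFIT1, IFIT2, IFIT3, IFIT5, MX1, MX2, ISG15 and IFI44 encode antiviral effector proteins that interferon is known to induce. They were taken by name, and every array probe that the platform annotation gives 1 of these symbols was followed. No probe carried the symbol IFIT1 in the annotation used here, and the other 9 genes had 13 of the 43794 probes on the array. All 13 probes were bright enough to be tested, among 32192 tested probes and 12381 tested genes in all. The cells were bovine cumulus cells, the somatic cells around the oocyte, taken with their oocytes from Holstein ovaries collected at slaughter. One condition was cultured with FID. It combines forskolin (100 µM), which activates the enzyme that makes cyclic AMP, with 2 inhibitors of its breakdown, IBMX (500 µM) and dipyridamole (50 µM). The control had the same maturation medium without those compounds, and complexes were cultured in groups, so each RNA was pooled over several complexes. The control label names 6 h, whereas the protocol text gives 22 to 24 h for both conditions, so a difference in time between them cannot be told apart from FID. FID and control RNA of 3 biological replicates, numbered 1, 2 and 4, were hybridised together on 2-colour arrays, each replicate on 2 arrays with the Cy3 and Cy5 dyes exchanged.

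Type I interferons bind a receptor that activates Janus kinases and, through them, transcription factors that induce a large group of interferon-stimulated genes. Some products of those genes detect viral RNA, others block steps of viral replication, and several, among them IRF7, strengthen further interferon production. In ruminants the conceptus secretes interferon tau, and members of this group such as ISG15, MX1 and OAS1 are known to rise in the maternal uterus and in blood cells during early pregnancy.

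Median spot intensity per array was 173 to 294 scanner units in FID and 143 to 255 in control. The limit for a signal above background was the 95th percentile of 153 negative control spots, which lay at 153 to 237 in the FID channel and at 118 to 195 in the control channel. Over all tested probes the FID over control ratios of the 6 arrays correlated pairwise at 0.336 to 0.807. Over all probes 555 passed limma's test against 0 after Benjamini-Hochberg adjustment at 0.05, 246 higher and 309 lower (201 and 454 with median centring in place of loess), and no adjusted p was below 0.0476. Of 18 cumulus and granulosa markers, 16 were tested and 15 exceeded the limit on 6 of 6 arrays in both conditions, all except NR5A1, FOXL2 and AMHR2. Oocyte markers were also measured, with 14 of 15 tested. Their summed normalized intensity was 1640 to 6150 in control and 1920 to 48300 in FID, and the median log2 ratio of FID over control was 1.17 in replicate 1, 2.91 in replicate 2 and 0.12 in replicate 4. Of 21 blood and immune markers, 11 were tested with a median log2 ratio of 0.135, and their summed intensity was 2190 to 3640 in control and 2710 to 5650 in FID. PTPRC, CD68, CD74 and HBA exceeded the limit on 6 of 6 arrays in both conditions, while TYROBP and ITGAM did so on 0 of 6 in either condition. The part of these cells in the results was not tested.

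All 9 measured members had a mean log2 ratio of FID over control below 0, against 6019 of all 12381 tested genes. For IFIT2 and MX2 it was close to 0, at -0.10 and -0.13. Of the 9 members 4, RSAD2, OAS1, IFIT5 and MX1, fell past the threshold. None rose, and ISG15, IFI44, IFIT3, MX2 and IFIT2 did not pass. Over all named genes 1.29% were called lower and 1.06% higher, and 0.96% of all tested probes were called lower. The median log2 ratio of the member genes, each read from its brightest tested probe, was -2.43, against 0.008 over all tested genes. At an unadjusted p under 0.05, 6 of 9 members were lower, against 16.1% of named genes. The ratio was negative on 6 of 6 arrays for 7 of 9 members, against 15.4% of named genes. In a limma fit of the single arrays, with a term for the dye and replicate as block, ISG15 and IFI44 also passed and 6 of 9 members were called lower, against 11.9% of named genes in that fit. That fit takes its degrees of freedom from all 6 arrays, although the dye-swap arrays of a replicate hold the same RNA pair. Its adjusted p values, here and below, can thus be too small for 3 replicates. IFI44 was bright enough to be tested only through its control signal, with FID above the limit on 3 of 6 arrays. Leaving out replicate 1, 2 or 4 left 0 member genes past the threshold each time, and 0 probes in all. The same counts of 0 were found without background correction, with the authors' deposited ratios, and with spots marked to be ignored kept in the background fit, and those spots were left out in an earlier analysis only after that count had been seen. In RNA pooled over many cells, a smaller share of cells that hold a transcript and less of it per cell cannot be told apart.

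**Figure D1:**
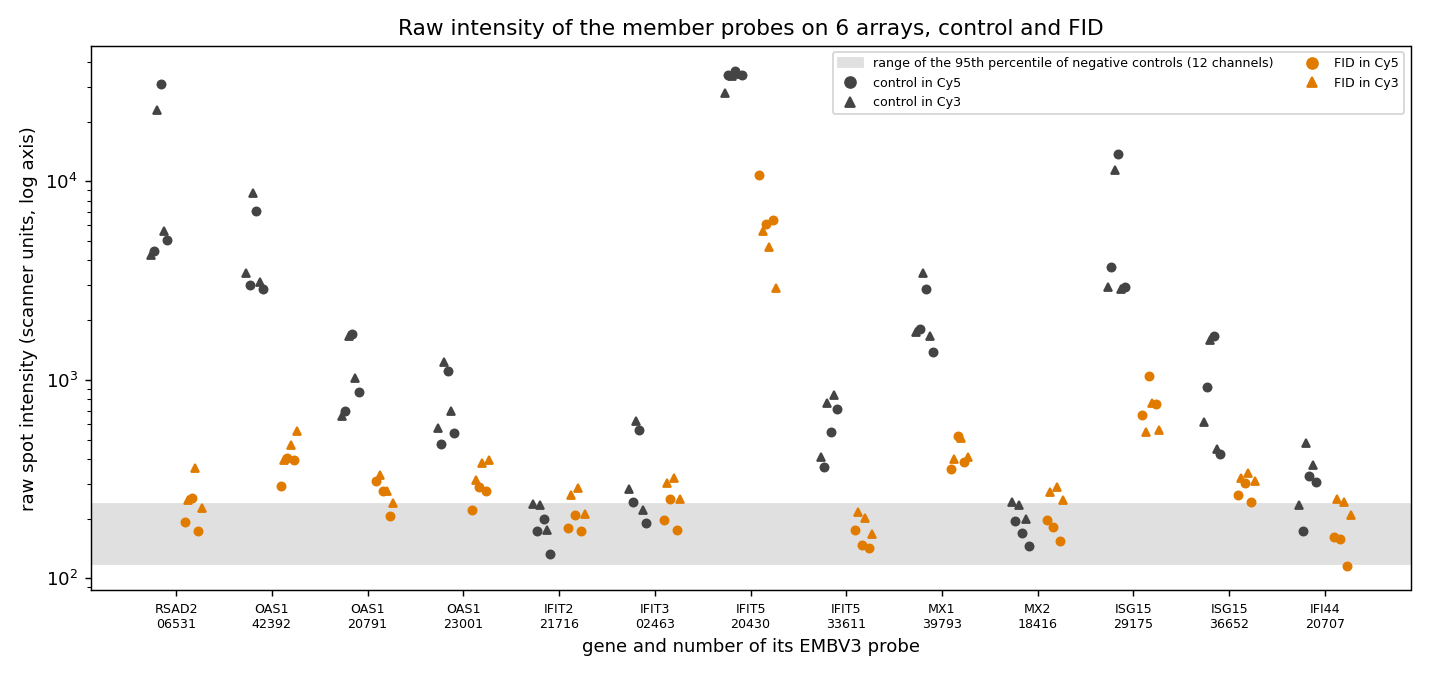
Raw spot intensity in scanner units (log axis) of the 13 member probes on the 6 arrays, control in grey and FID in orange, circles for Cy5 and triangles for Cy3; the grey band spans the background limits of the 12 channels. Control and FID intensities did not overlap for 9 probes, while those of IFIT2, IFIT3, MX2 and IFI44 overlapped and lay in or near the band. No share over all tested probes is set beside this count, so it is not read as particular to the members.

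RSAD2 encodes viperin, a radical SAM enzyme that interferes with the replication of many viruses. Its single probe, EMBV3_06531, had the largest decrease of all 32192 tested probes. Control intensity was 4269 and 4461 on the arrays of replicate 1, 22760 and 31050 on those of replicate 2, and 5616 and 5047 on those of replicate 4. FID intensity on the same arrays was 192.9, 246.9, 253.9, 358, 172.3 and 225. The lowest control value lay far above the highest FID value, and FID signal exceeded the background limit on 5 of 6 arrays. The log2 ratio was -4.86 in replicate 1, -6.84 in replicate 2 and -5.12 in replicate 4, with a mean of -5.60 ± 0.45 (moderated SE, n = 3 replicates) and an adjusted p of 0.0476 in limma. This is 48.7-fold lower in FID, from an FID signal that was 1.14 times the limit at the median. Without replicate 2 the mean log2 ratio was -4.99. It was -5.08 without background correction, -5.34 with the authors' deposited ratios and -6.03 with an offset of 10, so the fold depends on the processing.

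OAS1 encodes an oligoadenylate synthetase, which makes the short adenylate chains that activate the ribonuclease RNase L. The symbol matched a current RefSeq gene, OAS1Z, only as a synonym, and cattle carry several closely related OAS1 genes, so which copy each of its 3 probes measured is uncertain. On the brightest, EMBV3_42392, control intensity was 3445 and 3007 in replicate 1, 8703 and 7048 in replicate 2, and 3120 and 2875 in replicate 4. FID intensity was 292.5, 395, 403.6, 468.1, 394 and 550.3 on those arrays, above the limit on 6 of 6 and below every control value. Its log2 ratio was -3.46, -4.36 and -2.68 in replicates 1, 2 and 4, and it fell by 3.50 ± 0.36 (mean, moderated SE), or 11.3-fold, with a limma adjusted p of 0.0492. Besides the settings that ended all 4 member calls, this call was also lost without the filter on dim probes (adjusted p = 0.0526).

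The other OAS1 probes gave the same sign and smaller values. EMBV3_20791 had a median intensity of 947 in control and 276 in FID, and a log2 ratio of -2.29 ± 0.39 with an adjusted p of 0.0750. EMBV3_23001 had 633 and 301, and a log2 ratio of -1.48 ± 0.22 with an adjusted p of 0.0664. On both, every control value lay above every FID value, and both passed in the fit with the replicate block (adjusted p = 0.0027 for each). Their control signal was 6.99 and 4.53 times the background limit at the median, against 22.3 times for the brightest probe.

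The IFIT genes encode tetratricopeptide-repeat proteins, several of which bind viral RNA and hold back its translation. In RefSeq, IFIT2 and IFIT3 are adjacent protein-coding genes and 1 further such gene lies between IFIT3 and IFIT5. IFIT5 was the brightest member. Its probe EMBV3_20430 read 27860 and 34280 in the control channel of replicate 1, 33960 and 36080 in replicate 2, and 34840 and 34120 in replicate 4. FID intensity was 10800, 5649, 6089, 4656, 6358 and 2906. The control values were close to each other, while the FID values differed more between arrays and were lower where FID was labelled with Cy3 in each replicate. The log2 ratio was -2.03, -2.70 and -2.83 in replicates 1, 2 and 4, and IFIT5 fell by 2.52 ± 0.20 (moderated SE, n = 3), or 5.73-fold, with a limma adjusted p of 0.0476.

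The other IFIT5 probe, EMBV3_33611, had a control intensity of 363 to 843 with a median of 630. In FID it read 142 to 216 and was not well above background on any of the 6 arrays, so its measured fold is uncertain. With FID set to a floor in the main setting, FID was 5.48-fold lower than control by this probe. The floor was the lowest normalized level of any probe above the limit on each array, or the probe's own level where higher. A probe below the limit can lie above this floor, so 5.48-fold is not a strict lower bound. In replicate 1 the measured fold was 3.11. On the log2 scale it averaged 6.58, close to the measured 6.52. The probe did not pass (limma adjusted p = 0.0573, and 0.00143 with the replicate block). The 5.48-fold value also depends on the background correction and does not hold over all settings. The measured log2 ratio was -2.52 here, -1.89 without correction, -2.12 in the authors' deposited table and -3.24 with an offset of 10.

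IFIT3, which takes part in RNA recognition together with other IFIT proteins, did not pass. On probe EMBV3_02463 its control intensity was 281.9 and 242.8 in replicate 1, 622.5 and 557.4 in replicate 2, and 221.1 and 189.8 in replicate 4. FID read 196.3, 302.5, 251.5, 320.1, 174.2 and 250.8. The conditions overlapped, and only in replicate 2 was control far above FID. The log2 ratio was -0.29, -1.41 and -0.39 in replicates 1, 2 and 4, with a mean of -0.70 ± 0.27 and an adjusted p of 0.243.

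IFIT2 is known to bind RNA and to favour cell death when it is abundant. Its probe EMBV3_21716 read 133 to 236 in control and 172 to 287 in FID, and the ranges overlapped. The control signal was only 1.17 times the background limit at the median, and the ratio was negative on 4 of 6 arrays. The mean log2 ratio was -0.10 ± 0.09 with an adjusted p of 0.605.

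MX1 and MX2 encode dynamin-like GTPases that trap viral components, and they are adjacent protein-coding genes in RefSeq. MX1 (EMBV3_39793) read 1745 and 1801 in control of replicate 1, 3472 and 2867 in replicate 2, and 1662 and 1373 in replicate 4. FID intensity was 354.4, 399.4, 523, 512, 385 and 409, above the limit on 6 of 6 arrays and below every control value. The log2 ratio was -2.45, -2.76 and -2.09 in replicates 1, 2 and 4, the narrowest spread among the members that passed (SD 0.34). MX1 fell by 2.43 ± 0.16 (moderated SE, n = 3), or 5.40-fold, with a limma adjusted p of 0.0476.

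MX2 (EMBV3_18416) read 145 to 244 in control and 155 to 288 in FID. Control was brighter than FID on 3 of 6 arrays, and FID exceeded the limit on 4. The log2 ratio of MX2 was -0.13 ± 0.09 with an adjusted p of 0.475. Its control signal was 1.24 times the background limit at the median, against 11.2 times for MX1, so the data do not show whether the neighbouring genes differed in response.

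ISG15 encodes a ubiquitin-like protein that is attached to other proteins and is also secreted. On its brighter probe, EMBV3_29175, control intensity was 2938 and 3680 in replicate 1, 11420 and 13740 in replicate 2, and 2865 and 2921 in replicate 4. FID intensity was 665.7, 543.7, 1043, 761.2, 757.7 and 561.1. Every control value lay above every FID value, and FID exceeded the limit on 6 of 6 arrays. The log2 ratio was -2.51, -3.87 and -2.10 in replicates 1, 2 and 4, with a mean of -2.83 ± 0.39, or 7.10-fold lower. The mean ratio was further below 0 than those of IFIT5 and MX1, but the spread between replicates was wider (SD 0.93), and the adjusted p was 0.0603 in limma and 0.00129 with the replicate block.

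The dimmer ISG15 probe, EMBV3_36652, had a median intensity of 766 in control and 305 in FID with no overlap. Its log2 ratio was -1.69, -2.62 and -0.98 in replicates 1, 2 and 4. The mean was -1.76 ± 0.35 with an adjusted p of 0.0912, and 0.00641 with the replicate block. Both probes thus had the same order of replicates, with replicate 2 lowest and replicate 4 closest to 0.

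IFI44 encodes a cytoplasmic interferon-induced protein, and its probe EMBV3_20707 was dim. Control intensity was 232.8 and 173 in replicate 1, 480 and 326.4 in replicate 2, and 371.2 and 306.1 in replicate 4. FID read 161.1, 252.1, 156.9, 241.6, 115.9 and 208.7, above the limit on 3 of 6 arrays, namely those with FID in Cy3. The conditions overlapped, and on 1 array of replicate 1 FID was the brighter channel. The log2 ratio was -0.26 in replicate 1, -1.80 in replicate 2 and -1.76 in replicate 4. The mean was -1.27 ± 0.38 with an adjusted p of 0.160, and 0.0211 with the replicate block.

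**Figure D2:**
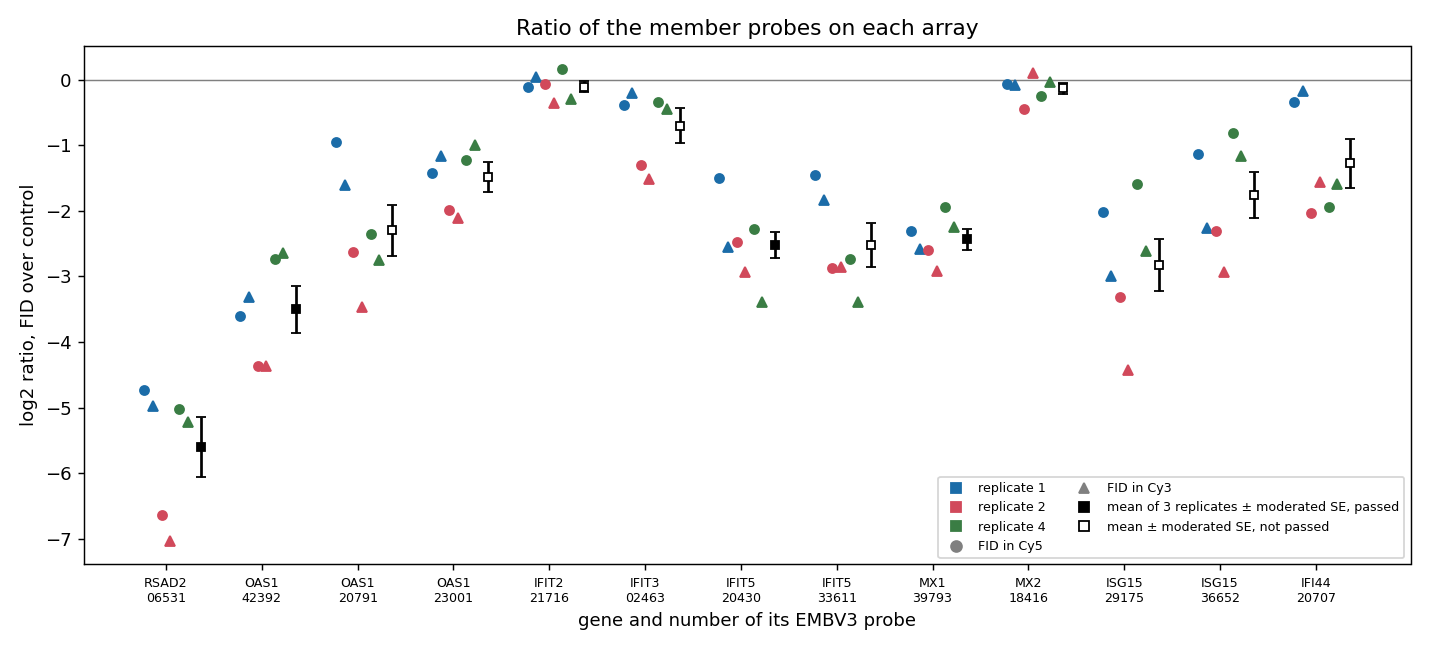
Log2 ratio of FID over control for the 13 member probes on each array, coloured by replicate, circles where FID was in Cy5 and triangles where it was in Cy3; squares give the mean of 3 replicates with its moderated SE, filled where the probe passed. RSAD2 lies between -7.03 and -4.74, and IFIT2 and MX2 lie on both sides of 0. The second IFIT5 probe is drawn at its measured ratio, although it did not exceed the background limit in FID on any array.

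The 4 probes whose conditions overlapped were those with the dimmest control signal. As a multiple of the background limit, at the median over 6 arrays, it was 1.17 for IFIT2, 1.24 for MX2, 1.53 for IFIT3 and 2.20 for IFI44. The other 9 probes had a control signal of 3.90 to 211 times the limit, and their mean log2 ratios ran from -5.60 to -1.48. Within OAS1 and within ISG15 the dimmer probes had the ratios closer to 0. Within IFIT5 the measured mean in the main setting was -2.52 on both probes, at 3.90 and 211 times the limit. The dimmer IFIT5 probe did not exceed the limit in FID on any array, and this match depends on the processing. Its mean was -1.89 without background correction and -3.24 with an offset of 10, against -2.51 and -2.53 on the brighter probe. A dim control signal leaves little room above background for a lower FID signal, and how much of the difference between members it accounts for was not tested.

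**Figure D3:**
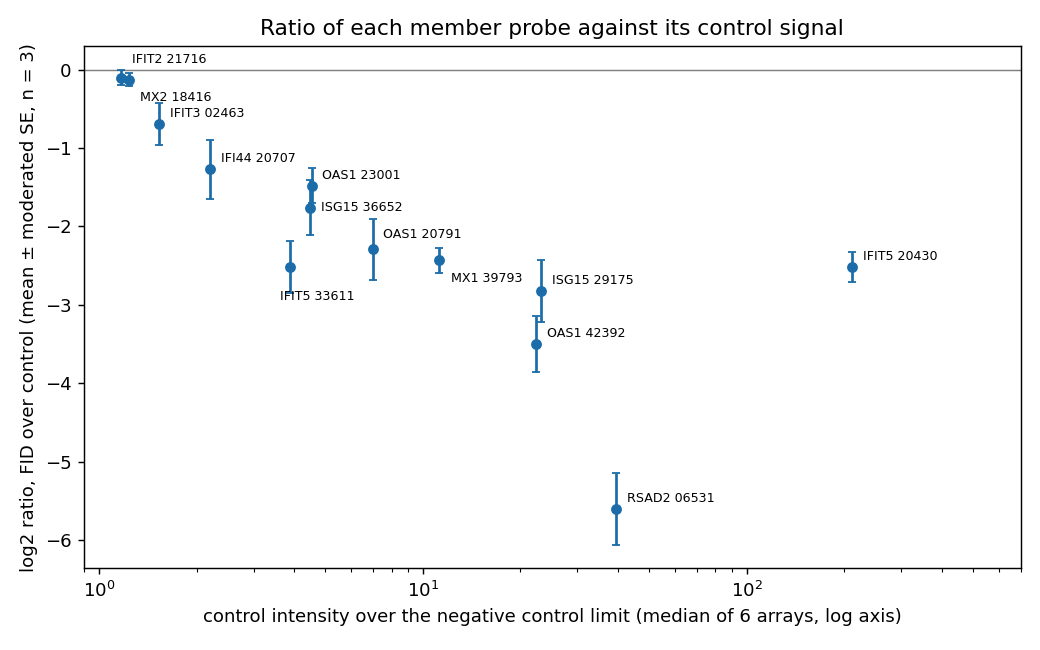
Mean log2 ratio of FID over control with its moderated SE (3 replicates) for the 13 member probes, against the control intensity as a multiple of the background limit (median of 6 arrays, log axis). The 3 probes with a mean ratio above -1, those of IFIT2, MX2 and IFIT3, have a control signal at 1.17 to 1.53 times the limit, and the brightest, IFIT5 at 211 times, has a ratio of -2.52; the second IFIT5 probe is again drawn at its measured ratio.

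Ordered by mean log2 ratio the genes ran RSAD2, OAS1, ISG15, IFIT5, MX1, IFI44, IFIT3, MX2 and IFIT2. By their brightest probes, RSAD2 lay below OAS1 by 2.11 on the log2 scale (SD 0.61 over 3 replicates) and OAS1 below ISG15 by 0.67 (SD 0.24), each in 3 of 3 replicates. The dimmer OAS1 probes, at -2.29 and -1.48, lay above the brighter ISG15 probe at -2.83, so the order of OAS1 and ISG15 depends on the probe. ISG15 and IFIT5 differed by 0.31 (SD 0.96) and IFIT5 and MX1 by 0.09 (SD 0.59), both less than their spread. MX1 and IFI44 differed by 1.16 (SD 0.95), with MX1 lower in 3 of 3 replicates, but IFI44 exceeded the limit in FID on only 3 of 6 arrays, so its ratio rests in part on signal below the limit. IFI44 and IFIT3 (0.57, SD 0.72), IFIT3 and MX2 (0.57, SD 0.58) and MX2 and IFIT2 (0.03, SD 0.06) did not differ beyond their spread. IFIT3 still lay below MX2 in 3 of 3 replicates, with both probes near the background limit. These are differences between ratios of probes, and they say nothing about the relative abundance of the transcripts.

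By replicate, the median log2 ratio of the 9 member genes was -2.03 in replicate 1, -2.70 in replicate 2 and -2.09 in replicate 4, and replicate 2 held the lowest ratio of 8 of the 9 genes. The exception was IFIT5, which was lowest in replicate 4. No count over all tested genes is set beside this one, so it is not read as particular to the members. Set beside the raw intensities, control signal on both arrays of replicate 2 lay above that of all other arrays for 8 of the 13 member probes, against 4.41% of all tested probes. They were those of RSAD2, MX1 and IFIT3 with all 3 of OAS1 and both of ISG15. In FID the same held for 3 of the 13, of RSAD2, MX1 and ISG15, against 8.04% of all tested probes. With each channel divided by its own median the counts were 9 in control and 2 in FID, against 7.5% and 8.48%. This look at replicate 2 was chosen after the values were seen, and no normalization was applied between arrays. The oocyte markers also had their highest ratio in replicate 2, and their part in the result was not tested. Without replicate 2 the member median was -2.27.

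The exchange of dyes did not turn the sign of any of the 9 probes with brighter control signal. The largest gap between the arrays of 1 replicate was 1.13 on the log2 scale (ISG15, EMBV3_36652), followed by 1.11 for IFIT5 and 1.10 for the brighter ISG15 probe. IFIT5 averaged -2.08 on the 3 arrays with FID in Cy5 and -2.96 on those with FID in Cy3, and the brighter ISG15 probe averaged -2.31 and -3.34. For RSAD2 the averages were -5.46 and -5.74, and for OAS1 they were -3.56 and -3.44. In the authors' deposited table, with the sign turned where FID was in Cy3, the ratio of RSAD2 averaged -5.34, that of IFIT5 -2.59 and that of MX1 -2.31.

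The profile of the member median over the 6 arrays was -1.50 and -2.56 in replicate 1, -2.47 and -2.92 in replicate 2, and -1.94 and -2.24 in replicate 4. Among 9704 other genes with control signal above the limit on every array, those with the smallest root mean square distance from it were RBM47 (0.281), an RNA-binding protein gene, LYPLA1 (0.307), an acyl-protein thioesterase gene, ZNFX1 (0.308), EIF2AK2 (0.316) and TCF21 (0.333), a transcription factor gene. Of the members, MX1 lay at 0.335 and IFIT5 at 0.486, while RSAD2 lay at 3.39. The member median was IFIT5's own value on some arrays and MX1's on the others, so their distances are small partly by construction. The 6 arrays share 3 replicates, so these distances describe few independent points.

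Other genes of the interferon pathway were counted on lists that were chosen with earlier results of these data known. On these lists 106 genes were tested, of which 6 fell and 0 rose (1.29% and 1.06% of all named genes). A negative ratio was found for 83 of the 106, against 6019 of all 12381 tested genes, and their median log2 ratio was -0.59, against 0.008. With the replicate block 49 were lower and 3 higher, against 11.9% and 8.84% of all named genes in that fit.

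Interferon genes themselves were measured poorly. Of 27 names, 7 had a probe and 3 were tested, IFNAC at 0.33 ± 0.11, IFNW1 at 0.135 ± 0.12 and IFNK at -0.52 ± 0.19, and none passed. IFNT, which encodes interferon tau, was above the limit on 0 of 6 arrays in either condition, and IFNB1 on 0 in control and 1 in FID. Of 10 tested genes for interferon receptors and their signal none passed, with a median log2 ratio of -0.75, and 5 were lower with the replicate block. The largest sizes were -1.14 ± 0.23 for IRF9, a transcription factor of the interferon response, -1.11 ± 0.25 for IFNGR2 and -1.02 ± 0.36 for IL10RB, both receptor chains. Of the 3 tested IL10RB probes 1 had a positive ratio.

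Of 7 tested interferon regulatory factors 1 fell. IRF7, the factor that drives interferon alpha genes, fell by 2.23 ± 0.09 with a limma adjusted p of 0.0476, at -2.22, -2.32 and -2.14 in replicates 1, 2 and 4. IRF8 had a ratio of 1.63 ± 0.71 with values from 0.47 to 3.58, IRF3 of -0.46 ± 0.26 and IRF2 of -0.08 ± 0.16, and none of these passed.

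Of 11 tested sensors of nucleic acids 2 fell, and the list median was -0.97 (all tested genes 0.008). IFIH1, which encodes the double-stranded RNA sensor MDA5, fell by 4.88 ± 0.44 with an adjusted p of 0.0476. EIF2AK2, which encodes the RNA-activated kinase PKR, fell by 2.39 ± 0.24 with an adjusted p of 0.0492. IFI16, a DNA sensor gene, had -1.995 ± 0.38, TLR3 -1.50 ± 0.20 and TBK1, the kinase that activates IRF3, -0.98 ± 0.26, without passing. With the replicate block 6 of the 11 were lower, these 3 among them.

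Among 10 tested genes of negative feedback TRIM21, an antibody receptor and ubiquitin ligase gene, fell by 1.17 ± 0.11 (adjusted p = 0.0492), and the list median was 0.00. USP18, which removes ISG15 from proteins, had a ratio of -1.56 ± 0.24 (adjusted p = 0.0675) with FID above the limit on 3 of 6 arrays. PIAS1, a SUMO ligase gene, had 1.08 ± 0.13 (adjusted p = 0.0541) and PTPN11, a phosphatase gene, -0.55 ± 0.09. The other tested PTPN11 probe had a positive ratio. With the replicate block 3 genes of the list were lower and 1, PIAS1, was higher.

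Of 47 other tested effectors 1 passed, 39 had a negative ratio and the median was -0.98. NMI, which encodes an interferon-induced protein, fell by 3.41 ± 0.18 with an adjusted p of 0.0476. HERC5, the ligase that attaches ISG15 in human cells, had a ratio of -3.95 ± 0.48 (adjusted p = 0.0543), HERC6 of -3.08 ± 0.34 (adjusted p = 0.0509) and PLSCR1, a phospholipid scramblase gene, of -2.97 ± 0.59 (adjusted p = 0.0911). These 3 ratios were larger in size than those of 7 of the 9 members and did not pass. With the replicate block 26 of the 47 were lower, these 3 among them, and 2 higher.

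Of 18 tested genes of MHC class I and antigen processing 1 fell, and the median was -0.67. TAP2, a subunit of the peptide transporter, fell by 1.98 ± 0.12 with an adjusted p of 0.0476. B2M, the light chain of MHC class I, had -1.72 ± 0.31, BOLA -1.28 ± 0.18 and BOLA-NC1 -1.04 ± 0.21, and none of these passed. All 3 passed with the replicate block, in which 8 of the 18 were lower.

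**Figure D4:**
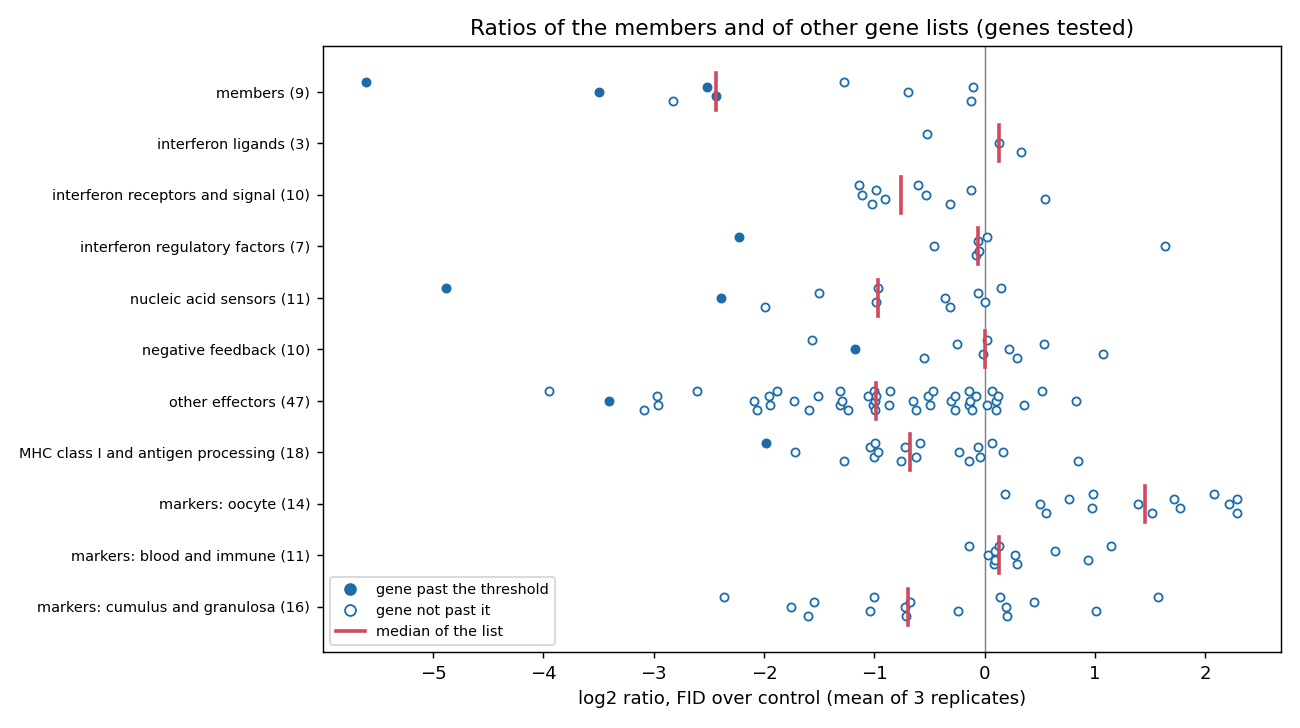
Mean log2 ratio of FID over control (3 replicates) of each tested gene of the members, of other interferon pathway lists and of cell type marker lists, with the number tested in parentheses; filled circles passed limma's test and the bar is the list median. The 9 members have a median of -2.43, the other effectors of -0.98 and the oocyte markers of 1.46.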

How the data were processed

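RNA of FID and control cumulus cells was amplified and hybridised on 6 Agilent 2-colour arrays, per the labels' protocols. Raw intensity per spot and its local background were deposited as scanner output, at 532 nm (Cy3) and 635 nm (Cy5), per the file headers. The authors also deposited normalized log2 ratios, in 2 tables whose largest difference was 0. These ran as Cy5 over Cy3, correlated at 0.992 to 0.997 with the ratios computed here, and had medians of -0.0185 to -0.00285; how they were normalized and centred is not given in the sources used here, and they served only as an alternative.

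The 1426 control and unnamed spots were left out of all tests. The 13 to 88 spots per array that the files mark to be ignored were removed before background correction. That choice was made in an earlier analysis after a count of 0 had been seen, and keeping those spots is an alternative. Intensities were corrected with limma 3.58.1 in R 4.3.3 (normexp, offset 50) and normalized by loess within arrays. Ratios were turned to FID over control and averaged over the arrays of a replicate. limma's lmFit and eBayes (2 residual and 1.85 prior degrees of freedom) tested each ratio against 0. Benjamini-Hochberg adjustment ran over the 32192 probes above the 95th percentile of the negative controls in either condition on at least 4 of 6 arrays. The dimmer IFIT5 probe and the IFI44 probe met this filter through control alone, with FID above the limit on 0 and 3 arrays. A probe below that limit on every array of a condition was also read against a floor. The floor was the lowest normalized level of any probe above the limit on each array, or the probe's own level where higher. It does not give a strict bound, since a probe below the limit can lie above it. Precision was limited by the 3 replicates, and the block fit had a correlation of 0.606 within replicates, whose arrays hold the same RNA pair per the labels. The procedure was tested on simulated data.

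The 21790 probes with a symbol were named through the platform annotation, and 9 of the 10 members matched a current RefSeq symbol or synonym (ARS-UCD2.0, used for names and neighbours only). Besides the members, the genes named are those of each list that passed, the 3 largest in size that did not, and the 5 most like the member median. Some markers are named for their detection alone, chosen after their values were seen. The members and lists were chosen with earlier results of these data known. Alternatives changed the background correction, offset, normalization, filter, dyes, prior variance, replicates and the summary of a gene's probes.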

Additional observations from a re-analysis of the deposited data

How the results depend on the processing

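The median log2 ratio of the member genes stayed between -2.67 and -2.08 under every alternative run. The value of -2.67 came with signal required in both conditions on all arrays, where 4 members were tested. The mean of each member probe stayed negative, but for IFIT2 and MX2 it came as close to 0 as -0.003. The number of member genes called lower, 4, was 0 with the marked spots kept in the background fit, with no background correction and with the authors' deposited ratios. The count of all probes, 555, was also 0 in these 3 settings. They left 7028, 7104 and 7430 probes at an unadjusted p under 0.05, with 7, 6 and 6 member genes among those lower, and smallest adjusted p of 0.056, 0.062 and 0.0506. Without replicate 1, 2 or 4 the counts were 0 to 0 for members and 0 to 0 for probes, with smallest adjusted p of 0.133, 0.249 and 0.116 and 4864 to 6583 probes at an unadjusted p under 0.05. These fits hold fewer samples. The count of all probes rose to 1162 with an offset of 10, 972 with signal required in both conditions on all arrays, 1611 on the arrays with FID in Cy5, 2269 on those with FID in Cy3, 1446 with an intensity trend in the prior variance, and 5186 with the replicate block and a dye term. The member count in these settings was 5, 4 of 4 tested, 5, 5, 5 and 6. It was 4 with median centring or scale normalization, and 3 without the filter on dim probes or with a gene's probes averaged. The cause of these changes was not tested. Of the alternative values for single member probes 140 kept their side of the threshold, 25 lost a call, 24 gained one and 0 reversed. Signal over background limits what IFIT2, MX2, IFIT3 and IFI44 can show. The dye-swap arrays are paired by replicate number in the labels, and the replicate block added ISG15 and IFI44 to the member calls and removed none.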

Other observations

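Of 16 tested cumulus and granulosa markers none passed, 10 had a negative ratio and the median log2 ratio was -0.69. The largest sizes were -2.36 ± 0.29 for KRT8 and -1.76 ± 0.40 for KRT18, both keratins of epithelial cells, and -1.60 ± 0.29 for HAS2, the hyaluronan synthase of the expanding cumulus. With the replicate block 8 of these markers were lower, these 3 among them, and 2 higher. Of 8 tested theca and stroma markers 2 fell, PDGFRA, a growth factor receptor gene of mesenchymal cells, by 2.09 ± 0.14 (limma adjusted p = 0.0476), while LUM, a matrix proteoglycan gene, fell by 1.49 ± 0.14 (limma adjusted p = 0.0492). ACTA2 had -1.06 ± 0.30, DCN -0.60 ± 0.12 and COL1A1 -0.48 ± 0.45 without passing, and with the replicate block 4 of the 8 were lower. Of 4 tested endothelial markers none passed, with KDR at -0.41, TEK at 0.38 and VWF at 0.28.

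All 14 tested oocyte markers had a positive mean ratio and none passed, while 2 were higher with the replicate block. ZP2, a zona pellucida gene, had 2.29 ± 0.93, with 2.10 in replicate 1, 4.61 in replicate 2 and 0.16 in replicate 4. DPPA3, a maternal-effect gene, had 2.29 ± 0.54 and KPNA7, an importin gene, 2.21 ± 1.02. Among blood and immune markers CD68 had 1.15 ± 0.57 and HBA 0.94 ± 0.29 without passing, and 2 of 11 were higher with the replicate block. LYZ was not well above background in control on any array. With control set to a floor close to its measured level, LYZ was 1.55-fold higher in FID in the main setting, which is not a strict lower bound. Its measured ratio did not pass (limma adjusted p = 0.0724). These markers were read from the same arrays as the antiviral genes, and their part in the ratios of those genes was not tested.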
